A study of Homo sapiens with 3 samples.

Results

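Translation initiation factors and 4E-binding proteins were described as a set of 43 genes, found by official symbol among the 60554 genes of a count table from KYSE30, a human cell line grown from a squamous carcinoma of the esophagus. All 43 symbols matched a gene identifier, and 42 passed the filter on low counts; EIF4EBP3 did not. The table compares 3 stable lines, with 1 library each: a line with an shRNA against SNORD12B (shRNA 1), a line with a different shRNA against it (shRNA 2), and a control line. SNORD12B is a box C/D small nucleolar RNA, a class that guides methylation of ribosomal RNA. What all 3 lines share is the pLKO.1-blast lentiviral backbone, medium with 10% serum, 24 hours of virus and then 2 weeks of blasticidin at 5 ug/mL. For the control, the genotype field reads vector while the treatment text names a non-targeting scrambled shRNA. No line had a replicate culture, so p-values below measure only how far the 2 shRNA lines differ, which may be technical, and the control library is taken to vary as much as they do.

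Initiation is the step at which the ribosome finds the start of a coding sequence. The eIF2 complex brings the initiator tRNA, eIF2B recharges eIF2 with GTP, and eIF3 is the large scaffold on the small ribosomal subunit. The cap of the mRNA is bound by eIF4F, made of the cap-binding protein eIF4E, the scaffold eIF4G and the helicase eIF4A. The 4E-binding proteins keep eIF4E from eIF4G until the kinase mTOR phosphorylates them. Many mRNAs of the translation machinery begin with a C and a run of pyrimidines, the 5' terminal oligopyrimidine tract, through which mTOR and the protein LARP1 act on their translation.

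Library totals were 15146805 to 17336936 counts, and the members took 1.06% of all counts under the shRNA 1 label, 0.928% under the shRNA 2 label and 0.962% in the control. SNORD12B itself was counted 15 times under the shRNA 1 label, 1 time under the shRNA 2 label and 7 times in the control. Under the shRNA 1 label this was 2.16 times the control, against its label, with a counting interval of 0.831 to 6.28 that includes 1. Under the shRNA 2 label it was 0.126 times the control (0.0028 to 0.982). These are few reads of a small RNA in an mRNA count table, and they do not measure the knockdown. Libraries are therefore named by their labels, and every direction given below is that of a library so labelled. CPM levels are counts scaled to the TMM-adjusted library total, and TPM levels, used where genes are compared, are also per exonic length. Of 11 squamous epithelial markers, 9 stood at 10 CPM or more in every library, while KRT5 and PKP1 lay far below that. KRT5 had 3, 2 and 1 counts under the shRNA 1 label, the shRNA 2 label and in the control, and did not pass the filter. In that order PKP1 stood at 0.132, 0.690 and 0.716 CPM. Of the 10 tested squamous markers, 7 were lower than the control under both labels (70%, against 27% of all tested genes). The summed marker level was 1286 CPM under the shRNA 1 label, 1781 CPM under the shRNA 2 label and 1901 CPM in the control, with most of it from CDH1 and SFN. Of the 10 tested markers, 3 had an unadjusted p under 0.05 by edgeR, all lower under both labels, against 1.33% of all tested genes. SOX2 had 12.2, 38.9 and 104.1 CPM under the shRNA 1 label, the shRNA 2 label and in the control, KRT17 had 15.45, 52.95 and 94.6 CPM, and KRT6A had 90.1, 51.4 and 174.7 CPM. The 3 tested markers not lower under both labels were below the control under the shRNA 1 label and above it under the shRNA 2 label. They were DSG3 at 61.2, 129.2 and 92.4 CPM, SFN at 357.7, 495.3 and 412.2 CPM, and CDH1 at 448.9, 678.0 and 632.7 CPM, in the same order. In that order, summed fibroblast markers lay at 9.47, 13.7 and 16.01 CPM, of which COL1A1 gave 9.34, 13.2 and 15.9 CPM, with COL1A2, DCN and LUM at 0. Leukocyte markers summed to 1.64, 2.24 and 2.08 CPM, of which CD68 gave 1.12, 1.84 and 1.76 CPM. The count of CD68 is uncertain, since it shares 81.7% of its exonic bases with another gene on its strand. Endothelial markers summed to 0.921, 5.81 and 3.71 CPM, with VWF at 0.0658, 0.517 and 1.11 CPM, CDH5 at 0.855, 5.23 and 2.60 CPM, and KDR at 0. The part of these differences in the results below was not tested. All levels are relative to the library, so fewer cells of a type and less RNA per cell cannot be told apart.

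Start sequences were looked up for the members because that tract is the feature through which this pathway acts on its own mRNAs. RefSeq start windows (GRCh38.p14) were held for 36 of the 43 genes. Of these, 7 had at least 1 RefSeq start that is a C followed by at least 4 further C or T bases (19.4%), against 7.11% of tested genes with a start window and 5.14% of all genes in that table. The search ran on the gene's own strand. The 7 windows follow, each with 20 bases before the start and 10 bases from it, with the run in capitals, and the windows of EIF4E and EIF5, which have no such run, stand beside them for contrast.
EIF3D: ccgctgcgcgcgcatgtttcCTCTTTTCCT
EIF3F: gtcatttccgcttccgcctcCTTCTTTCTC
EIF3K: gtcgtttccgtttccaccacCTCTTCCTgt
EIF3M: gcgtcgcgcggcccagttccCTTTTCCggt
EIF4A2: gggtggttgggcgccgctgtCTTTTCagtc
EIF4B: cgtgattgcctcatccgggtCTTTTgcgtt
EIF2S3: cagccggggtgatttccttcCTCTTTTggc
EIF4E: cccccccttctggagcggttgtgcgatcag
EIF5: gcgcggcggcggcgttgttcagtcagagcg
The windows lie at chr22:36529157-36529186 on the minus strand for EIF3D, at chr11:7987317-7987346 on the plus strand for EIF3F, at chr19:38619168-38619197 on the plus strand for EIF3K and at chr11:32583811-32583840 on the plus strand for EIF3M. That of EIF4A2 lies at chr3:186783557-186783586 on the plus strand, that of EIF4B at chr12:53006436-53006465 on the plus strand and that of EIF2S3 at chrX:24054936-24054965 on the plus strand. EIF4E lies at chr4:98929124-98929153 on the minus strand and EIF5 at chr14:103334217-103334246 on the plus strand. Subunits of eIF3 gave 4 of the 7 runs, while EIF3A, EIF3E, EIF3G, EIF3H and EIF3L had no start window and were not searched. A match describes these letters only, and the start used in these cells was not measured.

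A second motif, CACGTG, the E-box bound by MYC and related factors, was searched in the 250 bases before each RefSeq start. It reads the same on both strands. It was found for 11 of the 36 members (30.6%), against 10.8% of tested genes with a start window and 7.73% of all genes in the table. EIF4E, EIF4G1 and EIF5A2 had 2 copies each; the copy nearest the start is shown for EIF4E and EIF4G1 and the single copy for EIF4B, with the motif in capitals.
EIF4E: ggacatatccgtCACGTGgccagaagctgg
EIF4G1: ccctgcgccggtCACGTGggggcgccggct
EIF4B: gcccgctataatCACGTGattgcctcatcc
They lie at chr4:98929188-98929217 on the minus strand, at chr3:184314527-184314556 on the plus strand and at chr12:53006422-53006451 on the plus strand. The EIF4B window overlaps the start window shown above for that gene. EIF3F, EIF3K and EIF4B hold both CACGTG and an oligopyrimidine start.

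No member passed edgeR's quasi-likelihood test of the shRNA pair against the control at an adjusted p under 0.05, and 0% of all 17801 tested genes did. At an unadjusted p under 0.05 there were 0 members as well, against 1.33% of tested genes. The likelihood ratio test of edgeR, DESeq2, limma-voom and the quasi-likelihood test without the filter called 0 members too. Over all genes the likelihood ratio test called 0.0112% higher and 0.202% lower (0.213% in all), DESeq2 0% and 0.0674%, limma-voom 0% and 0.00562%, and the test without the filter 0.0136% and 0.126% (0.14% in all). The lowest adjusted p of a member was 0.99996 in the quasi-likelihood test. Fitted log2 fold changes of the shRNA pair over the control lay between -1.06 and 0.55, with a median of 0.02 for the members and 0.01 for all tested genes. The test rests on 1 residual degree of freedom and a median of 8.35 prior degrees of freedom shared across genes. Its p-values do not show that the members were unchanged.

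The members leaned in opposite directions in the 2 shRNA libraries. Under the shRNA 1 label, 30 of 42 lay above the control (71.4%, against 51.5% of all genes), and the median log2 ratio was 0.16. Under the shRNA 2 label, 29 of 42 lay below the control and 13 above it (31% above, against 49.7% of all genes). The median there was -0.12. Over all tested genes these medians were 0.01 under the shRNA 1 label and -0.00220 under the shRNA 2 label. The pattern above under the shRNA 1 label and below under the shRNA 2 label held for 21 members (50%), against 23.3% of all tested genes. Above the control in both were 9 members (21.4%, against 28.2% of all genes), below it in both were 8 (19%, against 27%), and 4 had the reverse pattern (9.52%, against 21.5%). Both ratios share the control library. At 1.25-fold or more from the control, 11 members were higher and 2 lower under the shRNA 1 label, where 23.6% of all genes were higher and 23% lower. Under the shRNA 2 label, 3 were higher and 11 lower, where 21.1% of all genes were higher and 21.4% lower. These are descriptions of single libraries, with no test.

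**Figure D1:**
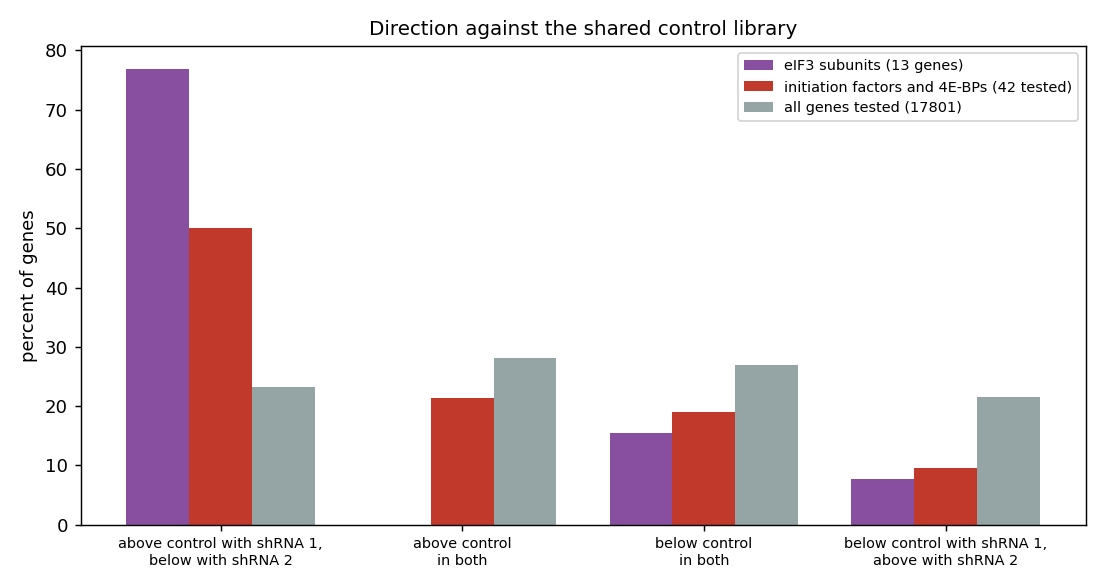
Percent of genes by direction against the control library for the 13 eIF3 subunits, the 42 tested initiation factors and 4E-binding proteins, and all 17801 tested genes. Of the eIF3 subunits, 76.9% lay above the control under the shRNA 1 label and below it under the shRNA 2 label, against 50% of all members and 23.3% of all genes. Among those subunits, EIF3D, EIF3G, EIF3H and EIF3K have a counting interval that includes 1 in at least 1 shRNA library.

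Set directly against shRNA 2, the library labelled shRNA 1 was higher for 31 of 42 members (73.8%, against 50.1% of all genes). The median log2 difference was 0.23, whereas the median over all genes was 0.000891. At least 1.25-fold higher under the shRNA 1 label were 16 members (38.1%, against 26.8% of all genes), and at least 1.25-fold lower were 5 (11.9%, against 27.2%). Count ratios between these 2 libraries, with exact 95% intervals that cover counting error only, reached 3.36 (2.38 to 4.82) for EIF4A1, 2.07 (1.58 to 2.71) for EIF5A2, 1.84 (1.61 to 2.11) for EIF2B3 and 1.81 (1.66 to 1.97) for EIF3J. The count of EIF4A1 is uncertain, since it shares 48.6% of its exonic bases with other genes on its strand. The lowest was 0.609 (0.435 to 0.8445) for EIF4E3. Higher under the shRNA 1 label than under the shRNA 2 label were all 5 eIF2B genes, all 5 genes of eIF5 and eIF6 and 11 of 13 eIF3 genes. These are 100%, 100% and 84.6%, against 50.1% of all genes. Among them, the intervals of EIF2B2 (0.892 to 1.14), EIF2B4 (0.992 to 1.29) and EIF3H (0.996 to 1.09) include 1. So does that of EIF4E2 (0.997 to 1.16) among the 31 members.

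**Figure D2:**
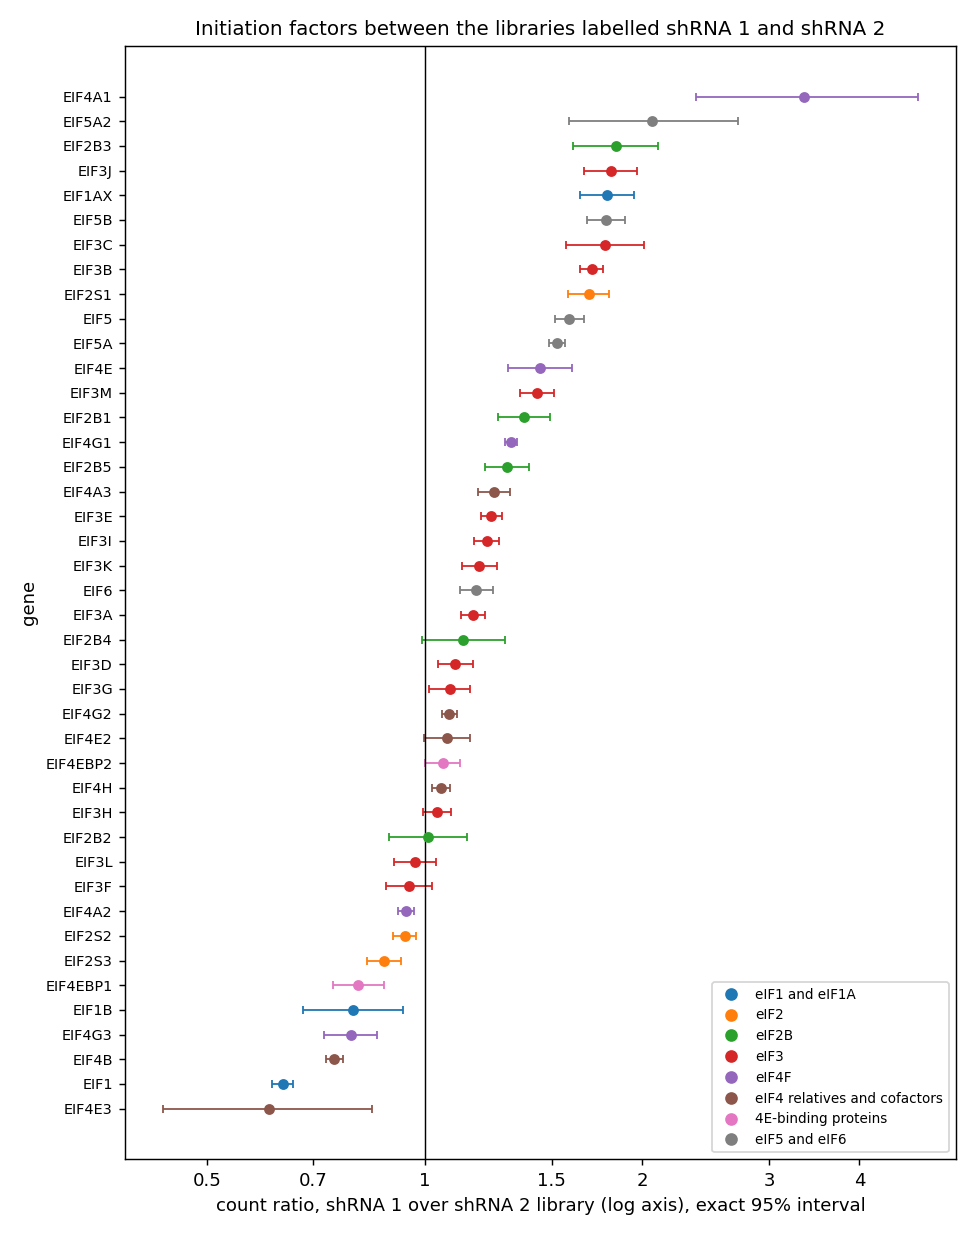
Count ratio of the library labelled shRNA 1 over that labelled shRNA 2 for each tested member on a log axis, with exact 95% intervals for counting error only and colours by factor complex. Of 42 members, 31 lie above 1 (73.8%, against 50.1% of all genes). Among these, the intervals of EIF2B2, EIF2B4, EIF3H and EIF4E2 include 1. The ratios run from EIF4A1 at 3.36, whose count is uncertain for its shared exons, down to EIF4E3 at 0.609.

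The eIF2 complex was split among its 3 subunits. EIF2S2, the beta subunit (ENSG00000125977.6, hg38 chromosome 20, 34088298 to 34112332, minus strand), stood at 356.5 CPM under the shRNA 1 label and 379.8 CPM under the shRNA 2 label, against 267.7 CPM in the control. Both shRNA libraries were higher than the control, at 1.33 times (1.28 to 1.39) under the shRNA 1 label and 1.42 times (1.36 to 1.475) under the shRNA 2 label, and no other member exceeded 1.33 times in both. Its fitted log2 fold change was 0.46 (SE 0.30). EIF2S1, the alpha subunit that stress kinases phosphorylate, stood at 147.1 and 87.2 CPM under the labels shRNA 1 and shRNA 2, against 115.2 CPM in the control, so the control lay between them. EIF2S3, the gamma subunit that holds the nucleotide and has an oligopyrimidine start, stood at 148.4 and 168.9 CPM under the labels shRNA 1 and shRNA 2, against 180.6 CPM in the control. It was lower in both, with a fitted log2 fold change of -0.19 (SE 0.30). Reads of EIF2S3 may be shared with its near-identical copy EIF2S3B, which stood at 4.41, 3.91 and 5.21 CPM in the order shRNA 1 label, shRNA 2 label and control.

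All 5 subunits of eIF2B, the exchange factor for eIF2, lay above the control under the shRNA 1 label (100%, against 51.5% of all genes). Their log2 ratios there were 0.09 to 0.25, and the interval of the EIF2B1 ratio (0.983 to 1.15) includes 1. Under the shRNA 2 label they ranged from -0.63 to 0.08. EIF2B3, the gamma subunit of its catalytic part, stood at 37.4 CPM under the shRNA 1 label and 20.4 CPM under the shRNA 2 label, against 31.6 CPM in the control. EIF2B2, the beta subunit of the regulatory part, stood at 31.9 and 31.6 CPM under the labels shRNA 1 and shRNA 2, against 29.9 CPM in the control. These 3 values agree within their counting intervals, as the ratios to the control were 1.07 (0.9375 to 1.21) under the shRNA 1 label and 1.06 (0.932 to 1.20) under the shRNA 2 label. EIF2B1, EIF2B2 and EIF2B3 are overlapped by genes of the opposite strand on 15.6%, 23.6% and 10.2% of their exonic bases. Reads were counted by strand, per the file header, but no source used here names the library kit, so such counts are uncertain.

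The 3 genes of the scanning factors eIF1 and eIF1A did not share a direction in either shRNA library. EIF1, which guards start codon selection, stood at 342.7 CPM under the shRNA 1 label and 538.9 CPM under the shRNA 2 label, against 405 CPM in the control. Its close relative EIF1B followed the same order at 17.6, 22.1 and 21.2 CPM in the order shRNA 1 label, shRNA 2 label and control. EIF1AX, which encodes eIF1A, stood at 88.8 and 49.6 CPM under the labels shRNA 1 and shRNA 2, against 69.6 CPM in the control. EIF1 and EIF1AX thus stood on opposite sides of the control in each shRNA library.

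Of the 13 eIF3 genes, 10 lay, mostly by small amounts, above the control under the shRNA 1 label and below it under the shRNA 2 label (76.9%, against 23.3% of all genes). Their medians on the log2 scale were 0.08 under the shRNA 1 label and -0.15 under the shRNA 2 label. At 1.25-fold or more, 1 of 13 was higher under the shRNA 1 label (7.69%, against 23.6% of all genes) and 3 were lower under the shRNA 2 label (23.1%, against 21.4%). The intervals of EIF3D, EIF3G and EIF3H under the shRNA 1 label include 1. So do those of EIF3G (0.889 to 1.01), EIF3H (0.936 to 1.02) and EIF3K (0.931 to 1.05) under the shRNA 2 label. EIF3J, a loosely attached subunit, lay furthest above the control under the shRNA 1 label, at 94.4 CPM under the shRNA 1 label and 52.1 CPM under the shRNA 2 label, against 66.2 CPM in the control. EIF3B, a subunit with a WD40 propeller, stood at 469.6 and 275.5 CPM under the labels shRNA 1 and shRNA 2, against 384.6 CPM in the control. EIF3L stood at 103.4 and 106.5 CPM under the labels shRNA 1 and shRNA 2, against 123.6 CPM in the control. With EIF3I it was the exception that lay below the control in both, though the interval of EIF3I under the shRNA 1 label (0.941 to 1.02) includes 1. EIF3L shares 41.1% of its exonic bases with another gene on the same strand, and its fitted log2 fold change was -0.24 (SE 0.30).

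The subunits EIF3A, EIF3D, EIF3E, EIF3G, EIF3I, EIF3K and EIF3M had log2 ratios of -0.03 to 0.28 under the shRNA 1 label and -0.32 to -0.02 under the shRNA 2 label. EIF3H and EIF3F hardly differed between the libraries. EIF3H stood at 255.6 CPM under the shRNA 1 label and 245.6 CPM under the shRNA 2 label, against 251.3 CPM in the control. EIF3F, an MPN-domain subunit like EIF3H, stood at 88.4 and 92.9 CPM under the labels shRNA 1 and shRNA 2, against 90.2 CPM in the control. The intervals of all their ratios to the control include 1, for EIF3F at 0.981 (0.909 to 1.06) under the shRNA 1 label and 1.03 (0.9585 to 1.11) under the shRNA 2 label. EIF3C stood at 42.5 and 23.9 CPM under the labels shRNA 1 and shRNA 2, against 34.96 CPM in the control, and its near-identical copy EIF3CL at 10.9, 8.16 and 10.1 CPM in the order shRNA 1 label, shRNA 2 label and control. Reads of these copies cannot be separated with certainty. Per annotated exonic length, the eIF3 counts in the control ranged from 14.8 TPM for EIF3C to 560.7 TPM for EIF3I. The low end is uncertain, since reads of EIF3C and EIF3CL may be shared. TPM divides by all annotated exonic bases, 6982 for EIF3C and 1725 for EIF3I, so this range need not be that of the mRNA levels.

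**Figure D3:**
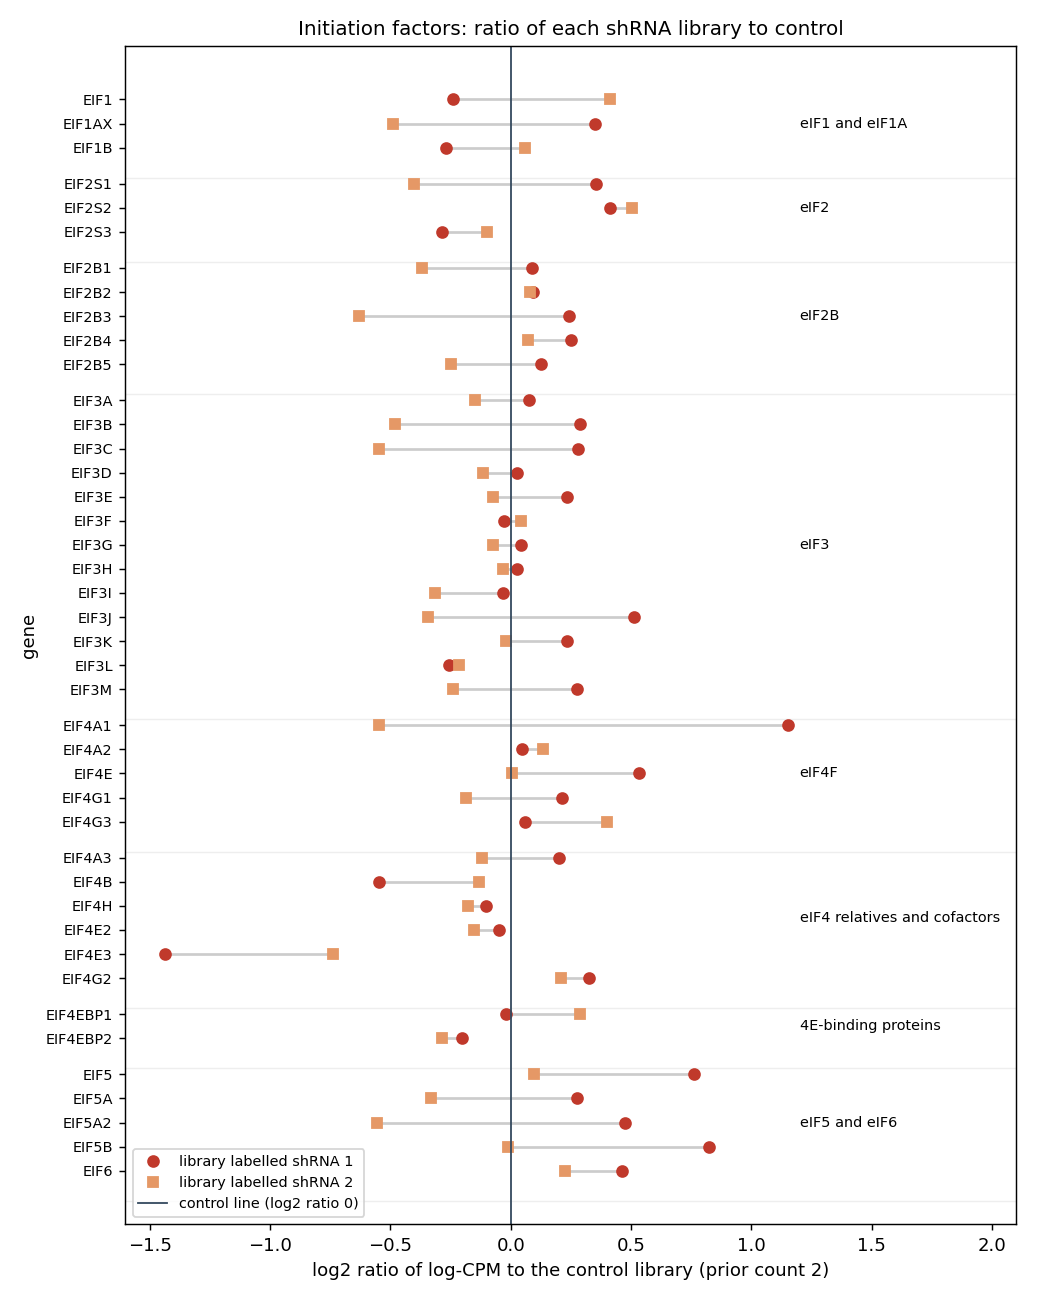
Log2 ratio of each shRNA library to the control library for the 42 tested members, by factor complex, with the control at 0. For 10 of 13 eIF3 genes the shRNA 1 point lies right of the control and the shRNA 2 point left of it. Of these, EIF3D, EIF3G, EIF3H and EIF3K have a counting interval that includes no difference in at least 1 library. EIF2S2, EIF6 and EIF4G2 have both points on the right and EIF4E3 both on the left.

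All 5 eIF4F genes lay above the control under the shRNA 1 label, against 51.5% of all genes, and 3 of 5 did under the shRNA 2 label, against 49.7%. Among the 5 are EIF4A1, whose count is uncertain, and EIF4G3, whose interval under the shRNA 1 label (0.9503 to 1.14) includes 1. EIF4E, which encodes the cap-binding subunit (ENSG00000151247.12, hg38 chromosome 4, 98871684 to 98930637, minus strand), stood at 55.0 CPM under the shRNA 1 label and 38.1 CPM under the shRNA 2 label, against 37.95 CPM in the control. Only the library labelled shRNA 1 was set apart, at 1.45 times the control (1.30 to 1.61), against 1.00 times (0.896 to 1.12) under the shRNA 2 label. EIF4G1, the main scaffold, was the most counted member, at 1387 and 1052 CPM under the labels shRNA 1 and shRNA 2, against 1196 CPM in the control. Its paralog EIF4G3 stood at 61.0 and 77.2 CPM under the labels shRNA 1 and shRNA 2, against 58.5 CPM in the control, so the scaffold genes had opposite orders of the shRNA libraries. EIF4A2, a helicase subunit with an oligopyrimidine start, stood at 661.8 and 702.2 CPM under the labels shRNA 1 and shRNA 2, against 640.2 CPM in the control. It differed little, with a fitted log2 fold change of 0.09 (SE 0.29), and it shares 10.5% of its exonic bases with small nucleolar RNA genes.

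EIF4A1, which encodes the other helicase subunit, was counted 132 times under the shRNA 1 label and 45 times under the shRNA 2 label, against 59 times in the control, or 8.68, 2.59 and 3.84 CPM in that order. These counts are low beside those of EIF4A2 and are uncertain. EIF4A1 shares 48.6% of its exonic bases on the same strand with other annotated genes, among them the read-through gene SENP3-EIF4A1, and the command in the file header has no option that assigns reads overlapping several genes. SENP3-EIF4A1 itself was counted 5, 0 and 1 times in the order shRNA 1 label, shRNA 2 label and control. The level of EIF4A1 in these cells can therefore not be read from the table.

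The 4E-binding proteins, the inhibitors of eIF4E, showed no common direction. EIF4EBP1 stood at 67.7 CPM under the shRNA 1 label and 83.65 CPM under the shRNA 2 label, against 68.55 CPM in the control, so the library labelled shRNA 2 alone lay apart, at 1.22 times the control (1.13 to 1.32). EIF4EBP2 (ENSG00000148730.6, hg38 chromosome 10, 70404379 to 70428618, plus strand) stood at 153.6 and 145.1 CPM under the labels shRNA 1 and shRNA 2, against 176.9 CPM in the control. It was lower in both, at 0.8685 times (0.821 to 0.918) and 0.820 times (0.7765 to 0.866) the control, with a fitted log2 fold change of -0.24 (SE 0.30). EIF4EBP3 had 1 count under the shRNA 1 label, 1 under the shRNA 2 label and 0 in the control, where a count of 0 allows up to 0.195 CPM. It shares 73.4% of its exonic bases with the read-through gene ANKHD1-EIF4EBP3, so reads from it may go uncounted. Per annotated exonic length, the counts in the control were 189.3 TPM for EIF4EBP1, 72.2 TPM for EIF4EBP2 and 7.99 TPM for EIF4E. The lengths divided by were 1073, 7257 and 14067 bases in that order, so these values need not be those of the mRNA levels.

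**Figure D4:**
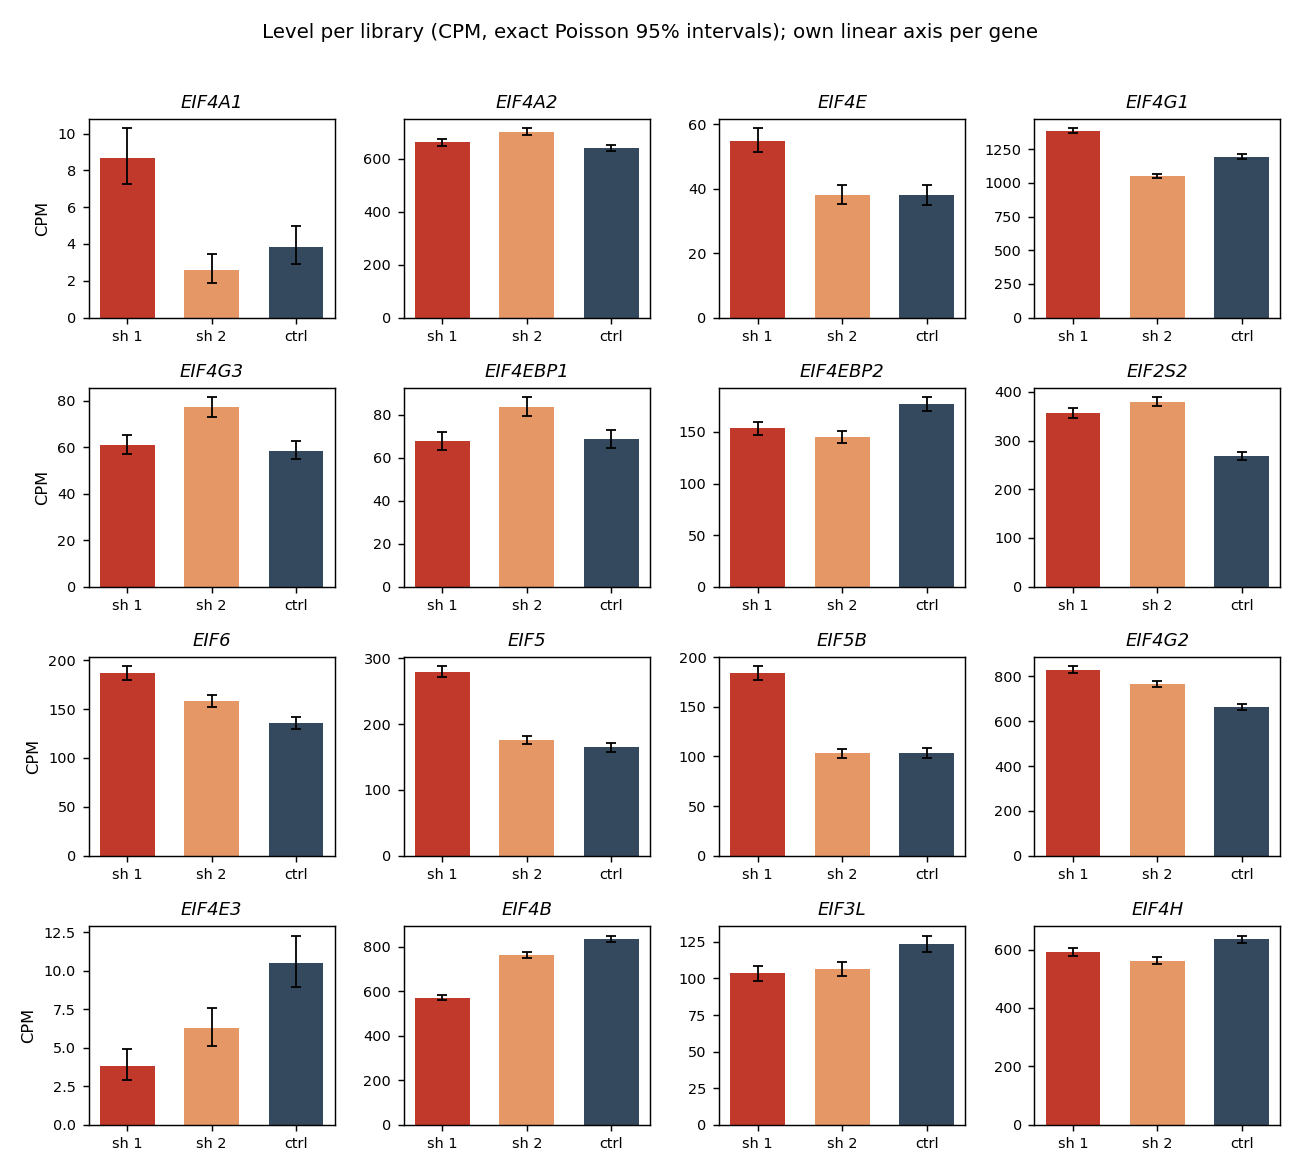
Level of 16 members in CPM in the libraries shRNA 1 (sh 1), shRNA 2 (sh 2) and control (ctrl), with exact Poisson 95% intervals for counting error only and a linear axis from 0 for each gene. EIF2S2, EIF6 and EIF4G2 were higher in both shRNA libraries, EIF4E3, EIF4B and EIF4EBP2 lower in both, and EIF5, EIF5B and EIF4E were set apart in shRNA 1.

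Of the 6 relatives and cofactors of eIF4F, 4 were lower than the control under both labels (66.7%, against 27% of all genes). Among the 4 is EIF4E2, whose interval under the shRNA 1 label (0.897 to 1.04) includes 1. EIF4E3 had the lowest ratio of the set in each shRNA library. EIF4E3, an atypical cap-binding member of the eIF4E family (ENSG00000163412.12, hg38 chromosome 3, 71675416 to 71754773, minus strand), stood at 3.81 CPM under the shRNA 1 label and 6.27 CPM under the shRNA 2 label, against 10.55 CPM in the control. Both shRNA libraries were lower than the control, at 0.362 times (0.263 to 0.491) and 0.594 times (0.462 to 0.762), on 58, 109 and 162 counts in the order shRNA 1 label, shRNA 2 label and control. Its fitted log2 fold change of -1.06 (SE 0.47) had an unadjusted p of 0.0502 and an adjusted p of 0.99996 by edgeR. EIF4B, a cofactor of the helicase, stood at 572.1 and 762.9 CPM under the labels shRNA 1 and shRNA 2, against 836.0 CPM in the control, with a fitted log2 fold change of -0.32 (SE 0.31). Both were lower, at 0.684 times (0.666 to 0.703) under the shRNA 1 label and 0.913 times (0.891 to 0.935) under the shRNA 2 label. EIF4B is overlapped on 11.9% of its exonic bases by TNS2-AS1 on the opposite strand.

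The other relatives lay closer to the control than EIF4E3. EIF4H, a second helicase cofactor, stood at 591.7 CPM under the shRNA 1 label and 561.6 CPM under the shRNA 2 label, against 635.3 CPM in the control, lower in both. EIF4E2, which encodes the cap-binding repressor 4EHP, stood at 90.9 and 84.7 CPM under the labels shRNA 1 and shRNA 2, against 94.1 CPM in the control, and genes of the opposite strand overlap 24.2% of its exonic bases. EIF4G2, a relative of eIF4G that lacks the eIF4E-binding part and is also known as DAP5, stood at 829.4 and 766.2 CPM under the labels shRNA 1 and shRNA 2, against 662.6 CPM in the control, higher in both. EIF4A3, the RNA helicase of the exon junction complex, stood at 200.4 and 160.6 CPM under the labels shRNA 1 and shRNA 2, against 174.3 CPM in the control, which lay between them.

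The genes of eIF5, eIF5A, eIF5B and eIF6 all lay above the control under the shRNA 1 label (100%, against 51.5% of all genes). On the log2 scale their median was 0.48 there and -0.00943 under the shRNA 2 label. EIF5, which triggers GTP hydrolysis on eIF2 (ENSG00000100664.10, hg38 chromosome 14, 103333544 to 103345025, plus strand), stood at 279.2 CPM under the shRNA 1 label and 176.0 CPM under the shRNA 2 label, against 164.5 CPM in the control. EIF5B, the GTPase that joins the ribosomal subunits (ENSG00000158417.10, hg38 chromosome 2, 99337353 to 99401326, plus strand), stood at 183.7 and 103.0 CPM under the labels shRNA 1 and shRNA 2, against 103.7 CPM in the control. Both genes were set apart under the shRNA 1 label, at 1.70 times (1.61 to 1.78) and 1.77 times (1.67 to 1.885) the control. Their fitted log2 fold changes were 0.47 (SE 0.36) for EIF5 and 0.47 (SE 0.39) for EIF5B. EIF5B is overlapped on 10.8% of its exonic bases by REV1 on the opposite strand.

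EIF6, which keeps the large ribosomal subunit from joining too early and acts in its assembly (ENSG00000242372.6, hg38 chromosome 20, 35278907 to 35284985, minus strand), stood at 186.7 CPM under the shRNA 1 label and 158.4 CPM under the shRNA 2 label, against 135.5 CPM in the control. It was higher in both, at 1.38 times (1.30 to 1.46) and 1.17 times (1.10 to 1.24) the control, with a fitted log2 fold change of 0.35 (SE 0.31), and it shares 17.3% of its exonic bases with another gene on its strand. EIF5A, which helps ribosomes through slow peptide bonds and carries the modified residue hypusine, had the highest level per length of all members, at 1034 TPM under the shRNA 1 label and 670.0 TPM under the shRNA 2 label, against 818.8 TPM in the control. Its paralog EIF5A2 kept the same order of libraries at 10.5, 5.06 and 7.49 CPM in shRNA 1, shRNA 2 and control. The near-identical copy EIF5AL1 was counted at 11.9, 10.1 and 10.6 CPM in the same order.

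The 7 members with an oligopyrimidine start had medians of 0.03 under the shRNA 1 label and -0.10 under the shRNA 2 label on the log2 scale, and the 28 other tested members with a RefSeq start had medians of 0.25 and -0.22. Over all tested genes with a start window, genes with such a run had medians of -0.04 under the shRNA 1 label and -0.02 under the shRNA 2 label, and the other genes 0.01 and 0.00247. The 7 ranged from -0.55 for EIF4B to 0.28 for EIF3M under the shRNA 1 label, and from -0.24 for EIF3M to 0.13 for EIF4A2 under the shRNA 2 label. Only EIF4A2 lay above the control in both, and EIF2S3 and EIF4B lay below it in both. The 10 tested members with CACGTG had medians of 0.21 under the shRNA 1 label and -0.12 under the shRNA 2 label, against 0.25 and -0.24 for the 25 members with a RefSeq start and without CACGTG. The difference between these classes was not tested.

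**Figure D5:**
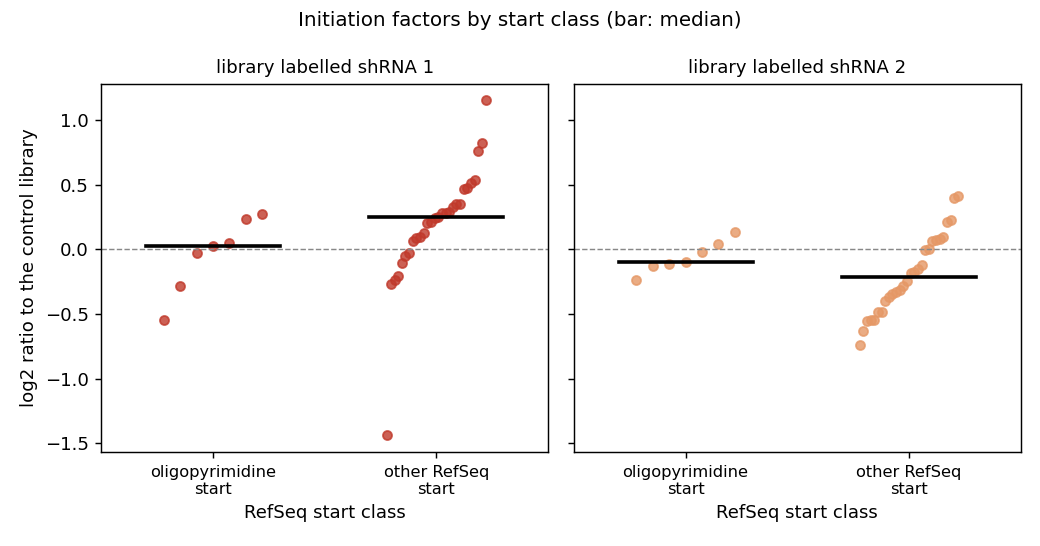
Log2 ratio to the control library of members with an oligopyrimidine start (7 genes) and of other tested members with a RefSeq start (28 genes), by shRNA library; points are genes and bars are medians. The medians were 0.03 and 0.25 under the shRNA 1 label and -0.10 and -0.22 under the shRNA 2 label.

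Of 23 genes that regulate initiation from outside the set, 0 passed edgeR's adjusted threshold, with 0% of all genes called. In both shRNA libraries 4 lay above the control and 4 below it (17.4% each, against 28.2% and 27% of all genes). Medians of the 23 genes were 0.02 under the shRNA 1 label and -0.02 under the shRNA 2 label. The largest fitted changes were 0.33 (SE 0.31) for DDX3X and 0.31 (SE 0.35) for DHX29, helicases that help scanning through structured leaders, and 0.29 (SE 0.31) for PAIP1, a partner of poly(A)-binding protein. In the order shRNA 1 label, shRNA 2 label and control, DDX3X stood at 306.2, 271.9 and 229.9 CPM, DHX29 at 63.7, 51.05 and 46.15 CPM and PAIP1 at 92.85, 97.4 and 77.7 CPM. Named here after their values were seen, MKNK2 and PDCD4 had the widest gaps between the shRNA libraries in this list on the side where shRNA 2 was higher. MKNK2, a kinase that phosphorylates eIF4E, stood at 167.5 CPM under the shRNA 1 label and 467.8 CPM under the shRNA 2 label, against 280.7 CPM in the control. PDCD4, an inhibitor of eIF4A, stood at 37.7 and 95.95 CPM under the labels shRNA 1 and shRNA 2, against 57.9 CPM in the control, and 28.1% of its exonic bases are overlapped by BBIP1 on the opposite strand. The control lay between the shRNA libraries for MKNK2 and PDCD4, in the order opposite to that of EIF4G1. On the side where shRNA 1 was higher, ABCE1 had the widest gap, and it too was named after its values were seen. ABCE1 stood at 113.1 and 47.2 CPM under the labels shRNA 1 and shRNA 2, against 69.0 CPM in the control. Genes of the opposite strand overlap 11.9% of its exonic bases. Of the 23 genes, 11 were higher under the shRNA 1 label than under the shRNA 2 label (47.8%, against 50.1% of all genes). LARP1 stood at 511.6 and 380.9 CPM under the labels shRNA 1 and shRNA 2, against 385.5 CPM in the control, and is likewise named after its values were seen.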

How the data were processed

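The authors deposited raw counts per gene, made with featureCounts 1.6.4, strand option 1 and an hg38 annotation, per the file headers. The submitters' processing notes name other tools and another build (TopHat2, HTSeq, hg19). CPM were counts over TMM-scaled totals, and the deposited column of exonic lengths gave TPM. Gene names came from an identifier table (56558 of 60554 matched). After filterByExpr, 17801 genes remained; they were TMM-normalised on full library totals and tested with edgeR 4.0.16 (R 4.3.3) by the quasi-likelihood F test, two-sided, Benjamini-Hochberg at 0.05. The SE is the absolute log2 fold change over the root of the F statistic. For a single library against another, the log2 ratio is the difference of their log-CPM values, computed with prior count 2. Intervals are exact Poisson, or exact conditional for ratios, at 95%, and cover counting error only. A count of 0 is given a limit of 3 counts. DESeq2 1.42.0 and limma 3.58.1 were alternatives. The fit was tested on simulated data. The members and lists were chosen with earlier results of these data known. Values in each library were given for eIF4F, the 4E-binding proteins, the 5 highest and 5 lowest members by the smaller ratio with at least 1 CPM, the 4 widest gaps between the shRNA lines and up to 3 genes per other list by fitted change; other members were added by role. Sequences are RefSeq's.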

Additional observations from a re-analysis of the deposited data

How the results depend on the processing

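Over the whole table, the number of genes called higher and lower was 0 and 0 in the quasi-likelihood test, 2 and 36 by the likelihood ratio test, 4 and 37 with no filter, 0 and 14 by DESeq2, and 0 and 1 each by limma-voom, with library totals only and with at least 5 CPM. No member was called under any of these or with RLE scaling. The median log2 fold change of all members stayed between -0.0104 and 0.0322 under these settings and the exclusion of members with shared or opposite-strand exons, which was chosen after seeing the data. Leaving out an shRNA line (a value with no test) changed more, and 25 members, those on opposite sides of the control in the 2 shRNA libraries, then turned sign in 1 of the 2 settings. For all members, the median ran from -0.12 to 0.16, for eIF1 and eIF1A from -0.24 to 0.0611, for eIF2 from -0.10 to 0.35, for eIF4F from 0.00406 to 0.21 and for eIF5 and eIF6 from -0.00943 to 0.48. For eIF2B it ran from -0.25 to 0.13, for eIF3 from -0.15 to 0.08, for the relatives of eIF4F from -0.14 to -0.08 and for the 4E-binding proteins from -0.11 to 0.000432. Under the other tests, scalings and filters, fold changes near 0 turned sign for 7 genes: with library totals only, EIF1AX (0.00718), EIF3G (0.000742) and EIF3H (0.0119); with limma-voom, EIF2S1 (-0.0257), EIF5A (-0.0290) and EIF5A2 (-0.0560); and with no filter, EIF3F (-0.00101) and EIF5A (-0.00624). The mean of the single-library log2 ratios at a prior count of 0.5 turned sign against the fitted value for EIF2S1, EIF5A and EIF5A2. The cause was not tested. No paired analysis was possible because the control line has 1 library and shares no second replicate number with the shRNA lines. The fewest counts lay behind EIF4EBP3, EIF4A1, EIF4E3 and EIF5A2, whose intervals are the widest.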

Other observations

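Genes listed under later steps of translation were counted in the same libraries. The elongation factor EEF1A1, which delivers aminoacyl-tRNA, stood at 6972 CPM under the shRNA 1 label and 9827 CPM under the shRNA 2 label, against 9823 CPM in the control, so the library labelled shRNA 1 alone lay apart. EEF2, the translocation factor, stood at 2461 and 2907 CPM under the labels shRNA 1 and shRNA 2, against 3112 CPM in the control, and EEF1E1 at 6.64, 3.56 and 3.19 CPM in the same order of libraries. EEF1E1 rests on 101, 62 and 49 counts and shares 18.7% of its exonic bases with EEF1E1-BLOC1S5 on its strand. Of the 8 genes listed with the elongation factors, EEF1E1 and EEF2K among them, 7 were tested. In both shRNA libraries 1 lay above the control and 1 below it (14.3% each, against 28.2% and 27% of all genes). The former was EEF1E1, whose interval under the shRNA 2 label (0.756 to 1.66) includes 1. EEF1G was counted 0 times in every library and shares 99.9% of its exonic bases with another annotated gene on its strand, and the termination factor GSPT2 was counted 0 times as well. Both tested termination factors, ETF1 and GSPT1, lay above the control under the shRNA 1 label and below it under the shRNA 2 label. That is the pattern of most eIF3 genes and of 23.3% of all tested genes. In the order shRNA 1 label, shRNA 2 label and control, ETF1 stood at 349.7, 248.9 and 288.5 CPM and GSPT1 at 151.8, 117.3 and 126.7 CPM. DOHH and DHPS, which make hypusine on eIF5A, had fitted log2 fold changes of 0.15 (SE 0.38) and -0.05 (SE 0.35), with DOHH at 34.2, 25.01 and 26.8 CPM and DHPS at 43.9, 53.75 and 50.7 CPM in that order of libraries. The mitochondrial initiation factor MTIF2 stood at 61.0 and 44.4 CPM under the labels shRNA 1 and shRNA 2, against 35.7 CPM in the control, higher in both, and MTIF3 at 20.25 and 20.8 CPM, against 18.4 CPM. The adjusted p of edgeR's quasi-likelihood test was above 0.05 for every tested gene named here. The germline cap-binding relative EIF4E1B had 0 counts in both shRNA libraries and 3 in the control.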
